A study of Mus musculus with 4 samples.

Results

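The long noncoding RNA genes Malat1, Neat1, Kcnq1ot1, Meg3 and Trp53cor1 were followed through 3 lists of m6A peaks. A peak was counted for a gene when the authors' gene column named it. The 5 genes held 74 of the 32707 peaks in the 3 lists: 43 of 15439 in the control list, 30 of 15417 in the Mettl3-knockdown list and 1 of 1851 in the list of peaks higher in the control. All 74 peaks lay in Malat1, Neat1 or Trp53cor1, and all were annotated as noncoding exon. Kcnq1ot1 and Meg3 had 0 peaks in each list.

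All libraries came from embryonic fibroblasts of the mouse that expressed E1A and HRasV12, a pair of oncogenes. Every group was given 0.2 µg/ml of doxorubicin, which breaks DNA, and was taken after 6 h. The control group carried control shRNA, named for luciferase in its sample title, and the knockdown group carried shRNA directed at Mettl3, the enzyme that writes m6A. For m6A-eCLIP, fragments of purified mRNA bound and crosslinked by an antibody to N6-methyladenosine are sequenced and set against input RNA. There was 1 m6A library and 1 input library per condition, so differences between the conditions have no replicate check and no test of them was possible. No library without doxorubicin was used here. Mettl3 itself had no listed peak, and the lists do not give RNA levels, so the extent of the knockdown cannot be read from them. The number of reads behind each peak is unknown, since the lists hold folds and p-values and no counts.

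m6A is laid on RNA in the nucleus by a complex of Mettl3 and Mettl14, mostly within a short consensus sequence. Long noncoding RNAs that stay in the nucleus are substrates of that complex, and in human cells m6A in a hairpin of MALAT1 is known to open the hairpin for the RNA-binding protein HNRNPC. Malat1 gathers in nuclear speckles, the stores of splicing factors. Neat1 is the scaffold of paraspeckles and is itself induced by p53. It is made as a short and a long form from the same start. Kcnq1ot1 and Meg3 are imprinted RNAs, the first a silencer of its chromosomal neighbourhood. Trp53cor1, also called lincRNA-p21, is transcribed next to Cdkn1a and is induced by p53.

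Lower limits bear on every absence. No peak of either list over input had a log2 fold under 3, so a stretch below an 8-fold enrichment does not appear. The smallest −log10 p in the control list was 3.09, so peaks with less support than that are not in it either. The lists also cut a continuous stretch into adjoining pieces, each with its own fold. Pieces of a gene that touched were joined into stretches, and pieces of a stretch share fragments and are not independent.

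Malat1 carried 1 joined stretch in each list, at almost the same place. The gene spans chromosome 19, 5795690 to 5802672 (mm10, minus strand), a span of 6983 bases with 1 RefSeq transcript record. The control stretch lay at 5801395 to 5801518, which is base 1155 to base 1278 counted from the annotated 5' end, or 16.5% to 18.3% of the gene. It was 124 bases long and cut into 15 pieces. The knockdown stretch lay at 5801402 to 5801531, base 1142 to base 1271, and was 130 bases long in 12 pieces. Both lists thus marked a single short window in the 5' part of Malat1 of which the stretches took up 1.78% and 1.86%.

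The Malat1 stretches shared 117 bases, or 85.4% of the 137 bases in either list. The knockdown stretch reached 13 bases further towards the 5' end and the control stretch 7 bases further towards the 3' end. Of the 15 control pieces, 14 were overlapped by a knockdown piece (93.3%, exact 95% interval 68.1 to 99.8), and all 12 knockdown pieces were overlapped by a control piece (73.5 to 100). Taken over all genes, the share overlapped in the other list was 81.1% for control peaks and 83.7% for knockdown peaks. When at least 50% of both pieces had to overlap, 8 of the 15 control pieces of Malat1 were matched, beside 59.9% of control peaks over all genes. The intervals cover counting error only and treat the pieces as independent.

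The folds of Malat1 were modest for listed peaks. They ran from log2 3.11 to 3.59 over input in the control list and from 3.13 to 3.63 in the knockdown list. The median largest fold per gene was 3.91 and 3.99 in these lists, and 67.9% and 69.9% of genes reached a larger one than Malat1. The highest control piece was the 5 bases from 1208 to 1212, at 3.59. The highest knockdown piece was the 7 bases from 1212 to 1218, at 3.63, so the summits of both libraries met within a few bases. A lower shoulder followed in both, at bases 1236 to 1252 in the control list (3.48) and 1250 to 1252 in the knockdown list (3.45).

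**Figure D1:**
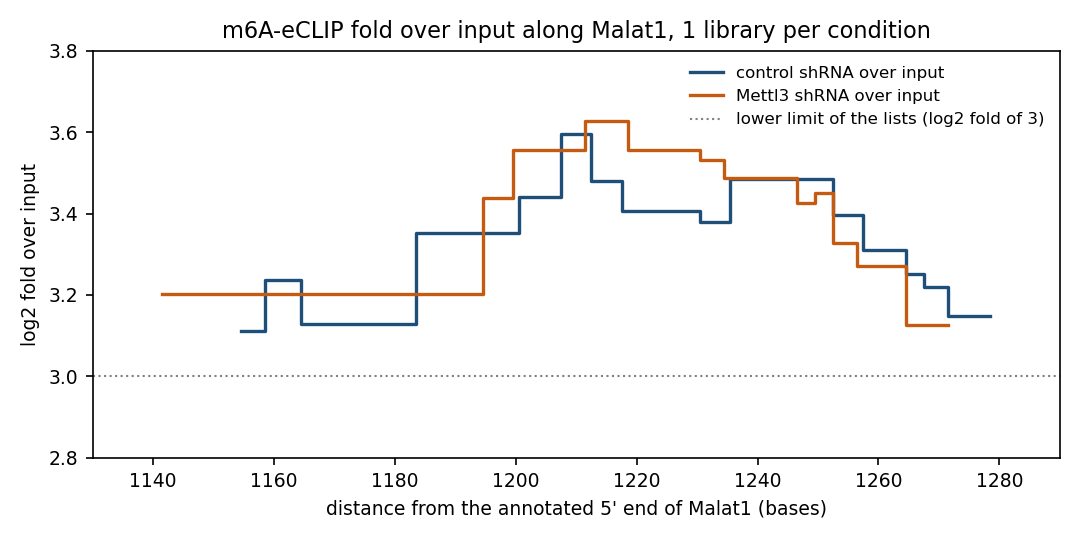
Log2 fold over input (y axis) against distance from the annotated 5' end of Malat1 in bases (x axis), 1 library per condition; each step is a listed piece and the dotted line is the lower limit of the lists. Both lines top out between bases 1208 and 1218, at 3.59 in the control and 3.63 in the knockdown, and cross each other several times along the 117 shared bases.

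The fold over shared bases is a measure chosen after seeing the data. Over the 117 shared bases the log2 fold of Malat1 averaged 3.34 for the control and 3.37 for the knockdown, which differ by 0.03. The knockdown fold was higher at 71 bases and lower at 46. By control piece, it was higher over 6 and lower over 8 of the 14 that were shared, with differences from -0.12 to 0.16. The knockdown was higher in the centre, by 0.15 over bases 1213 to 1217 and by 0.16 over bases 1218 to 1230. It was lower at the 3' edge, with a difference of -0.12 over bases 1265 to 1267. The authors' deposited table of peaks higher in the control held no peak in Malat1.

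Neat1 carried the largest folds over input of the 5 genes, again as a single joined stretch in each list. The gene spans chromosome 19, 5824708 to 5845480 (mm10, minus strand), 20773 bases with 2 RefSeq transcript records. The control stretch lay at 5843756 to 5844016, base 1465 to base 1725 from the annotated 5' end, and was 261 bases long in 26 pieces. The knockdown stretch lay at 5843749 to 5844134, base 1347 to base 1732, and was 386 bases long in 18 pieces. Both lay within the first 8.34% of the gene span, and the only listed peak beyond them was that of the comparison list described further on. The span takes in the short and the long form, and the place of the stretches along the short form was not determined. The lists do not give RNA levels, so the absence of peaks from the remaining length does not show an absence of m6A there.

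**Figure D2:**
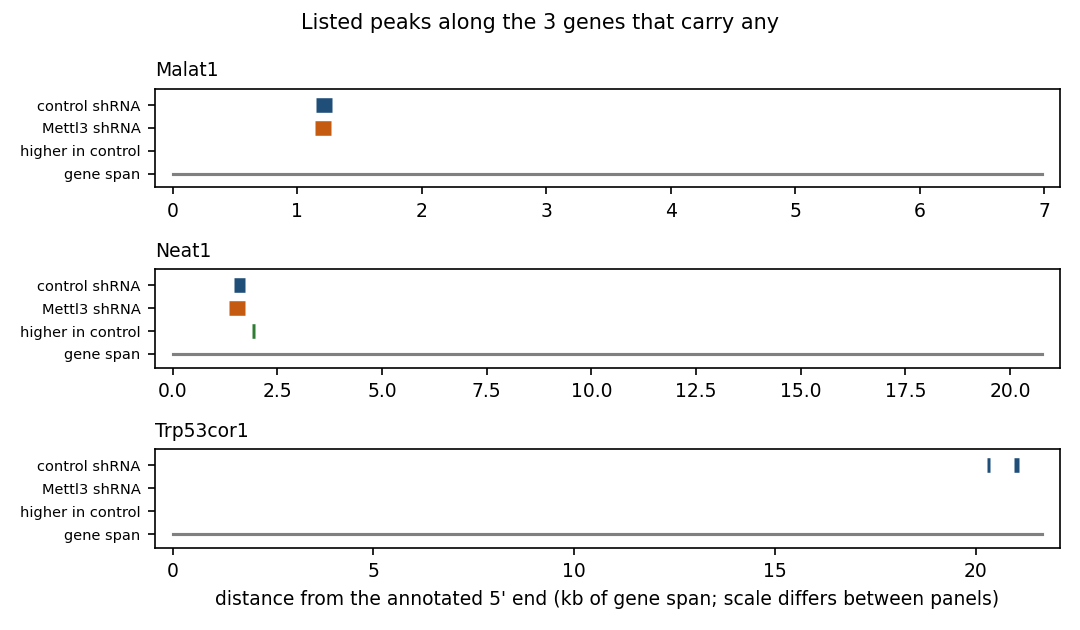
Listed stretches of Malat1, Neat1 and Trp53cor1 along the gene span, with distance from the annotated 5' end in kb on the x axis (the scale differs between panels) and 1 row per list. The stretches of Malat1 and Neat1 lie in the 5' part of each gene, at 16.4% to 18.3% and 6.48% to 8.34% of the span, and the 2 control peaks of Trp53cor1 lie beyond 93% of it.

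The knockdown list covered the whole Neat1 stretch of the control list and more. All 261 control bases were also listed in the knockdown, which added 118 bases at the 5' end and 7 at the 3' end. All 26 control pieces were overlapped in the knockdown list (exact 95% interval 86.8 to 100). Of 18 knockdown pieces, 17 were overlapped in the control list (94.4%, 72.7 to 99.9). Over all genes these shares were 81.1% and 83.7%. When at least 50% of both pieces had to overlap, 15 of the 26 control pieces were matched, beside 59.9% of control peaks over all genes. The pieces form 1 stretch in each list, so these counts do not stand for separate overlaps. The 1 knockdown piece with no overlap was the 118 bases from 1347 to 1464, at a log2 fold of 3.47. The control fold of those bases is not listed, so the size of the difference there is unknown.

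The fold over input along Neat1 had 2 summits with a dip between them, at the same bases in both libraries. The 5' summit was the 11 bases from 1497 to 1507, which stood at 4.13 (log2 fold) for the control and 4.66 for the knockdown. The dip was the 3 bases from 1547 to 1549, at 3.76 and 4.23. The 3' summit began at base 1596 in both and stood at 4.42 in the control and 4.63 in the knockdown. The 3' summit was the higher in the control, while the 2 knockdown summits stood close together, at 4.66 and 4.63. The largest fold per gene exceeded that of Neat1 for 23.0% of control and 21.8% of knockdown genes.

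**Figure D3:**
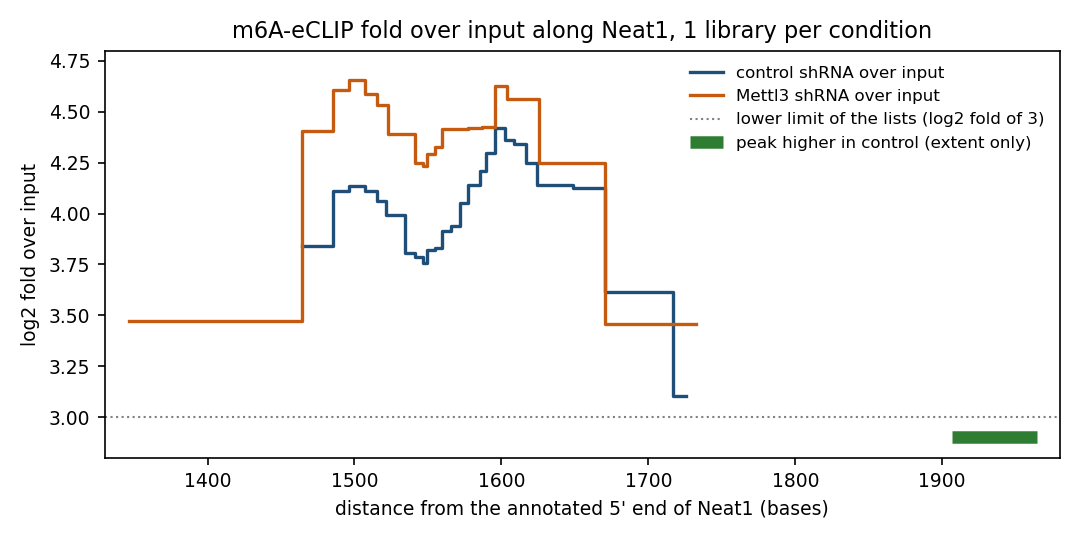
Log2 fold over input (y axis) against distance from the annotated 5' end of Neat1 in bases (x axis), 1 library per condition; steps are listed pieces, the dotted line is the lower limit of the lists and the green bar marks the extent, not the height, of the peak of the comparison list. The knockdown line runs above the control line over 25 of 26 control pieces, both dip at bases 1547 to 1549, and the green bar lies at bases 1907 to 1964, outside both lines.

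Over the 261 shared bases the mean log2 fold of Neat1 was 3.96 in the control and 4.22 in the knockdown. The knockdown was thus higher by 0.26, a 1.20-fold difference, and it was higher at 215 bases and lower at 46. The gap was wide in the 5' part, where it ran from 0.36 to 0.58 over the control pieces between bases 1465 and 1577. It was narrower from base 1578 to base 1670, where it ran from 0.12 to 0.31. Over the 46 bases from 1671 to 1716 the control was the higher, with 3.61 against 3.46. The 9 bases at the 3' edge stood at 3.10 in the control and 3.46 in the knockdown, but a single knockdown piece spans both of these control pieces. In the 7 pieces with identical ends in both lists, the knockdown fold was higher in each, by 0.46 to 0.57. All 7 lay between bases 1465 and 1559, in the 5' part where the gap was wide.

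These differences were set beside those of all 3825 genes with bases in both lists. The median gene was 0.06 higher in the knockdown, with quartiles of -0.17 and 0.29, and the mean fold was higher in the knockdown in 57.1% of genes. Malat1, at 0.03, stood near that median, with 53.9% of genes above it. Neat1, at 0.26, lay within the quartiles, with 27.7% of genes above it. With 1 library per condition the spread of such a difference between replicates is unknown.

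**Figure D4:**
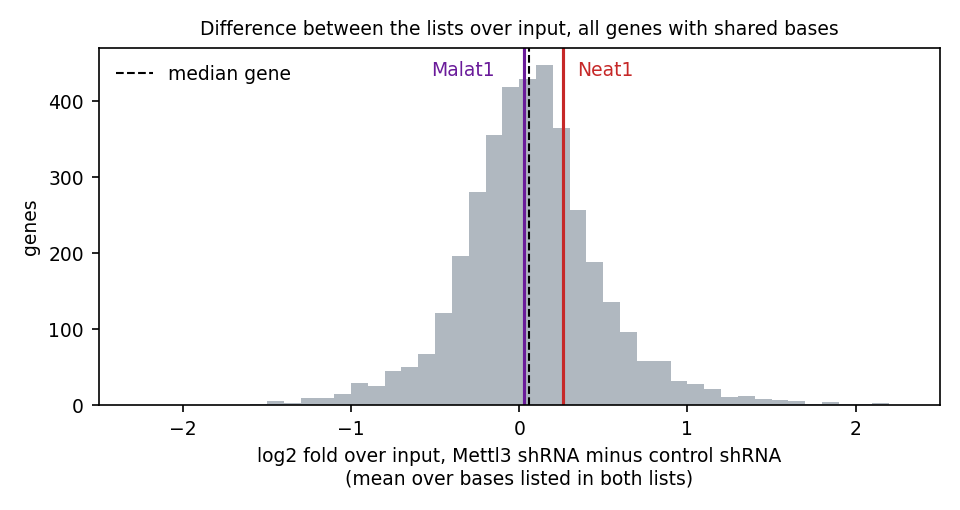
Histogram of the log2 fold over input in the knockdown minus that in the control, averaged over shared bases (x axis), for 3825 genes (y axis, number of genes; the x axis is limited to 2.5 on either side). Malat1 at 0.03 lies next to the median gene at 0.06 (dashed), and Neat1 at 0.26 lies to its right, short of the upper quartile at 0.29.

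Neat1 alone among the 5 genes held a peak higher in the control, as did 12.2% of all genes with a control peak. In the authors' deposited table the Neat1 peak lay at chromosome 19, 5843517 to 5843574, base 1907 to base 1964, and was 58 bases long. There the authors' deposited table gave it a log2 difference of 0.85, or 1.80-fold, with p = 4.10e-14. By p it ranked 46 of 1851 in the authors' deposited table, and by difference 704. The median log2 difference of the authors' deposited table was 0.76. Like 77% of all peaks in the authors' deposited table, it overlapped neither list over input, and it began 181 bases towards the 3' end from the control stretch, and 174 bases from the knockdown stretch. As no log2 difference under 0.50 was listed there, the direction at this peak was fixed beforehand and gives no contrast with the stretch over input. In that stretch the mean was higher in the knockdown, as were 25 of 26 control pieces. The control was higher over 1 piece, bases 1671 to 1716, with a log2 fold of 3.61 against 3.46.

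Counted by piece, peaks in noncoding exons were scarce among those higher in the control. They made up 5 of 1851, or 0.270%, in the authors' deposited table, against 3.61% of control peaks and 3.78% of knockdown peaks. The other 4 lay in Oip5os1, Usp50, 2810408I11Rik and Gm11478, named after their values were seen. The authors' deposited table gave them log2 differences of 1.21, 1.18, 0.71 and 0.69, in that order, and p-values that ran from 7.28e-05 to 0.0421. Neat1 thus had the smallest p of the 5 in the authors' deposited table. None of the 5 peaks overlapped a peak over input, which was also true of 77% of all peaks in the authors' deposited table. The shares over input depend on how stretches are cut, since a few genes hold many pieces. Of the 558 control pieces in noncoding exon, Xist held 66, Neat1 26, Malat1 15 and Tug1 15.

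Trp53cor1 was listed only in the control. The gene spans chromosome 17, 29057474 to 29079126 (mm10, minus strand), and its 2 control peaks lay at 29058784 to 29058849 and at 29058054 to 29058187. Counted from the annotated 5' end along the gene span, these are bases 20278 to 20343 and 20940 to 21073, beyond 93% of the span and so near the 3' end. They were 66 and 134 bases long and 596 bases apart. Both had the same log2 fold over input, 4.03, and the same −log10 p, 3.58. That pair of values was shared, within 1e-09, by 42 control peaks in 40 genes.

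The support for Trp53cor1 was among the weakest of the control list. Only 144 control peaks, or 0.933%, had a smaller −log10 p, while 55.9% of control peaks stood at the upper limit of 400, among them all 41 pieces of Malat1 and Neat1. In the knockdown list, where Trp53cor1 had 0 peaks, all 30 pieces of Malat1 and Neat1 also stood at that limit. Of all genes with a control peak, 17.2% had no knockdown peak. Of the 166 RefSeq long noncoding RNA genes with a control peak, 60 had no knockdown peak, Trp53cor1 among them. The authors' deposited table held no peak higher in the control for Trp53cor1, so its absence from the knockdown list goes with no listed difference. The −log10 p of its peaks, 3.58, lay near the smallest of the control list, 3.09. Their log2 fold of 4.03 lay further from the lower limit of 3. A fall below the limits of the list, in fold or in p, cannot be told apart from a loss of signal.

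Kcnq1ot1 and Meg3 appeared in none of the 3 lists. Kcnq1ot1 spans chromosome 7, 143213111 to 143296547, and Meg3 spans chromosome 12, 109540996 to 109571729 (mm10). No peak of any gene name lay within either span on either strand. The lists do not give RNA levels, so low expression and low methylation cannot be told apart for these genes.

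The pieces of Malat1 and Neat1 were many and short. Their median length in the control list was 6 bases for Malat1 and 6.50 for Neat1, against 119 for all control peaks, and in the knockdown list 7 and 10, against 114. By number of pieces Neat1 was surpassed by 16 and Malat1 by 47 of 4765 genes in the control list. By bases covered the order was different: 65.6% of genes covered more than Neat1 in the control list and 92.9% more than Malat1. In the knockdown list 40.7% and 89.5% did. A count of peaks therefore does not measure how much of these RNAs was marked.

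By bases covered in both lists, the 3 genes most like Malat1 were Pcsk7 (126 in the control and 132 in the knockdown), Slc35a4 (127 and 129) and Ccdc59 (121 and 131). They had 1 control peak each, where Malat1 had 15. The genes most like Neat1 were the locus named both Gm49380 and Rnf26 (264 and 382 bases) and Ankrd17 (265 and 380), with 3 control peaks each. Likeness was the sum of the absolute differences in log2 bases covered over the 2 m6A libraries.

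Listed peaks were rare in long noncoding RNA genes as a class. Of 12731 long noncoding RNA genes of RefSeq, matched by symbol, 1.30% were in the control list and 1.08% in that of the knockdown, against 20.1% and 19.4% of protein-coding genes. The comparison list named 0.0236% of them, 3 genes including Neat1, and 5.52% of protein-coding genes. These shares count every gene of a class, expressed or not, so they do not compare methylation between the classes. Of the 5 genes described here, 3 had control peaks and 2 knockdown peaks, but they were chosen with earlier results of these data known. Among the 166 long noncoding RNA genes with a control peak, the median number of bases covered was 234. Neat1 covered slightly more than that with 261 and Malat1 less with 124, and 1 gene, Xist, had more pieces than Neat1.

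Of 22 other long noncoding RNAs, 3 were in the control list, 4 in the knockdown list and 0 in the comparison list. Xist, the RNA that silences the X chromosome, had 66 control and 70 knockdown pieces over 1066 and 1285 bases, each in 4 stretches. Its largest log2 fold over input was 5.82 in the control and 6.68 in the knockdown, and over shared bases it was higher in the knockdown by 0.37. Tug1 covered 1146 and 1107 bases with 15 and 10 pieces, all in noncoding exon as in Xist, and differed by -0.05 over shared bases. Airn, an imprinted antisense RNA, had 9 control and 4 knockdown peaks, all in its introns, with a difference of -0.27. Firre was listed only in the knockdown, with 1 peak of 94 bases at 3.15, near the lower limit of 3. Of the 137 long noncoding RNA genes with a knockdown peak, 31 had no control peak. Malat1 and Neat1 thus covered fewer bases than Xist, Tug1 or Airn in both lists.

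**Figure D5:**
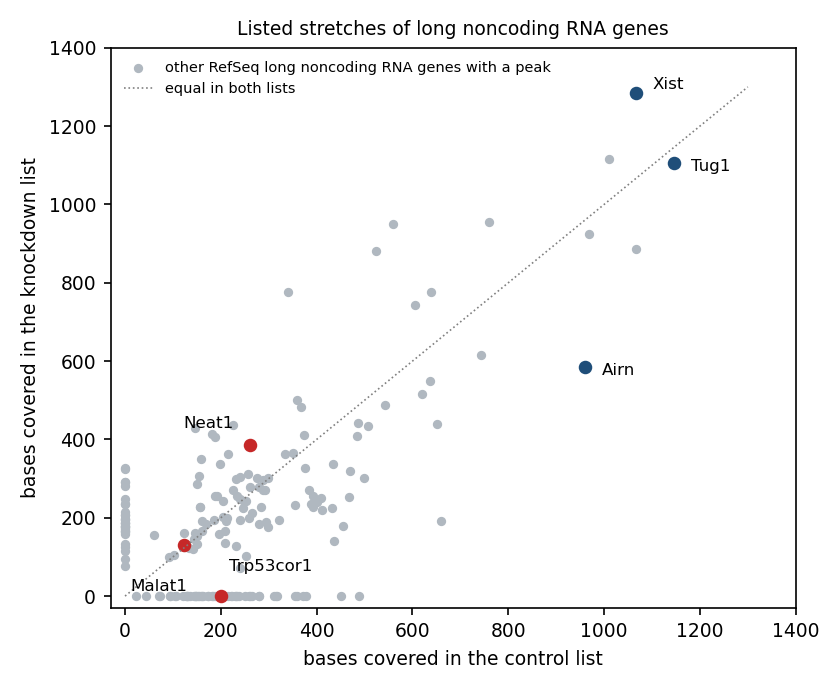
Bases covered by listed stretches in the control list (x axis) and the knockdown list (y axis), 1 point per RefSeq long noncoding RNA gene with a peak; red points are genes described here, blue points are other named genes and the dotted line marks equal values. Malat1 (124 and 130) lies on the line, Neat1 (261 and 386) above it and Trp53cor1 (200 and 0) on the x axis.

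Genes for proteins of the bodies that Neat1 and Malat1 inhabit were also counted. Of 13 paraspeckle protein genes, Rbm14, Cpsf7 and Tardbp had a peak in both lists over input. Their differences over shared bases were -0.30, -0.07 and -0.00127, with a median of -0.07 against 0.06 for all genes. Dazap1, an RNA-binding protein gene, had no peak over input but 3 peaks in the authors' deposited table, the largest at a log2 difference of 0.83 (p = 6.94e-07). Of 13 nuclear speckle and splicing genes, Srsf5, Son and Srrm2 had a peak in both lists over input, with differences of -0.03, -0.10 and 0.15 over shared bases and a median of -0.03. Son, a scaffold protein of speckles, covered 1080 control and 1045 knockdown bases. In the authors' deposited table Son had 3 coding-sequence peaks of up to 0.64 (p = 0.0143) and Srrm2 had 1 of 0.59 (p = 0.0340). A control peak was thus held by 3 of 13 genes in each group, beside 20.1% of protein-coding genes.

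Peaks gave limited information on the labelled cell type, since they do not measure RNA levels. Of 10 fibroblast markers, Pdgfra and Pdgfrb had a peak in both lists over input and Col1a2 in the knockdown list alone. Of 12 markers of other cell types, Nes had a peak in both and Tubb3 in the knockdown list alone. Over all genes, 83.7% of knockdown peaks were overlapped by a control peak. Among these markers only Nes had a peak in the authors' deposited table, at a log2 difference of 0.64 (p = 0.00929). Over all protein-coding genes of RefSeq, 20.1% had a control peak, 19.4% a knockdown peak and 5.52% a peak in the authors' deposited table.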

How the data were processed

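Of 4 samples, each of the 2 m6A-eCLIP libraries has its own peak list, and the 2 input libraries entered only through the folds. The submitters' processing notes name UMI-tools 0.5.1, cutadapt 2.7 and build mm10, while the aligner, the peak caller and its test are not given. Per the file headers, the deposited lists over input hold 2 values for a peak, a log2 fold and a −log10 p-value, which does not exceed 400. The comparison list, called the authors' deposited table, gives a log2 difference (control against Mettl3 knockdown) with its p-value. No peak lower in the control is in it, and its smallest difference is 0.50. In the 5 peaks with identical ends throughout, it was the control log2 fold less the knockdown one, within 1e-06. These values per peak come from the authors and were used only for description.

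As 7410 pairs of control peaks touched and 0 overlapped, starts were taken as 0-based and are printed 1-based. Gene spans came from RefSeq for GRCm38.p6, whose coordinates are those of mm10, and positions were counted from the 5' end of the span, introns included. Touching pieces were joined with Python 3.11.15, pandas 2.3.3, numpy 2.4.6, scipy 1.17.1 and matplotlib 3.10.9, in steps checked on simulated data. An overlap was at least 1 base on the same strand. Named were the 5 genes, their highest pieces and each of their peaks in the comparison list. Of the related lists, genes in the comparison list or in a single list over input were named, and others serve as examples. The genes and lists were chosen with earlier results of these data known. DRACH motifs and the sequences of the stretches were not analysed here. Alternatives covered stricter folds and p-values, wider joining, other overlaps, matching by gene span and other averages.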

Additional observations from a re-analysis of the deposited data

How the results depend on the processing

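With only peaks of log2 fold of at least 4, Malat1 was left with 0 peaks, 0 stretches and 0 bases in both lists and 0 shared bases, and its overlap could not be computed. Neat1 then had 15 control peaks, all 15 overlapped, in 2 stretches over 135 bases, while the knockdown list covered 206 bases and both shared 135. With only peaks at the upper limit of −log10 p, Trp53cor1 had 0 peaks and 0 bases. When at least 50% of both pieces had to overlap, 8 control pieces of Malat1 and 15 of Neat1 were matched, beside 59.9% of control peaks over all genes. With a log2 difference of at least 1, Neat1 had 0 peaks higher in the control. After the median gene was subtracted, the difference of Malat1 was -0.0338 in place of 0.0265. Over pieces with identical ends, all in the 5' part of the stretch, that of Neat1 was 0.52. Malat1 had no such piece. The mean difference over shared bases and all its settings were chosen after seeing the data. The other 55 values stayed within 1.5 times those reported, or, for mean differences, within 1 SD over bases. Many of these could not have changed, since a stricter limit leaves a count of 0 at 0 and wider joining leaves a single stretch as it is. The number 55 is therefore not a measure of robustness. No paired analysis was possible because each condition had 1 library. Depth is unknown, so no limit from counts can be given.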
